A study of Mus musculus with 10 samples.

Results

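Transcripts of lysosomal cathepsins were examined in hippocampal tissue from hMapt mice, through 9 genes of the deposited table: Ctss, Ctsb, Ctsd, Ctsl, Ctsz, Ctsh, Ctsc, Ctsa and Ctsf. They were taken by gene symbol and are 9 of the 21956 genes of the table, and for each of them the deposited description names a cathepsin. Ctss was chosen by its measured values, the count and TPM difference between the treatment groups in these same libraries, so that difference is given as a description and supports nothing further. The other 8 genes were taken as members of the same protease family, with their values in that comparison already known. All mice of both groups were 6 months old and carried the genotype label hMapt, which the labels do not spell out further. The circTau6 group, 5 mice, received an adeno-associated virus (AAV) for circTau6, a circular RNA derived from the tau gene MAPT, and was sampled 80 days after injection. The control group, also 5 mice, is called control-injected in the protocol. The labels used here state neither the agent given to controls, nor the promoter of the vector, nor the sex of the mice. The libraries hold bulk tissue, so fewer cells of a type and less RNA per cell cannot be told apart.

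Cathepsins are the main proteases of the lysosome, the acidic compartment where cells break down endocytosed material and worn-out proteins. Most are cysteine proteases made as inactive proenzymes, sorted to the lysosome through mannose 6-phosphate receptors and held in check by cystatins. In brain they are made by many cell types. Cathepsin S is the member most tied to microglia and other antigen-presenting cells, where it trims the invariant chain of MHC class II molecules and stays active at neutral pH.

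Promoter windows of 3 members are shown because the results below turn on these genes: the groups did not overlap for Ctss, while Ctsd, and by Pearson's r alone Ctsl, varied together with the choroid plexus transcript Ttr. The windows run from 250 bases before to 50 after the RefSeq start in GRCm38.p6, read along the strand of the gene, positions are counted from 0 at the first transcribed base, and capitals mark the motif matches described next. The Ctss window is chr3:95526536-95526835 on the plus strand, the Ctsd window chr7:142387778-142388077 on the minus strand, and the Ctsl window chr13:64370471-64370770 on the minus strand.
Ctss: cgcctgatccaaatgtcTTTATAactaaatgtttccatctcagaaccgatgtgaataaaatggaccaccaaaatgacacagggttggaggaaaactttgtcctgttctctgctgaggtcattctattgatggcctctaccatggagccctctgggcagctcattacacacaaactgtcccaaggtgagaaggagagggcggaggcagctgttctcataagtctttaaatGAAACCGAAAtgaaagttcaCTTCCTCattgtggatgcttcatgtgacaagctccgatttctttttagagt
Ctsd: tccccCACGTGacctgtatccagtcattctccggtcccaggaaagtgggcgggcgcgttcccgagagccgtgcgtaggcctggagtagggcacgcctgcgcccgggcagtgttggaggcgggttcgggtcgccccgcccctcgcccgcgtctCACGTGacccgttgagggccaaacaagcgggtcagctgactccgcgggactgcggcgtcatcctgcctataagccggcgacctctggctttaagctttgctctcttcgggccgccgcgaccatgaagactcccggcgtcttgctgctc
Ctsl: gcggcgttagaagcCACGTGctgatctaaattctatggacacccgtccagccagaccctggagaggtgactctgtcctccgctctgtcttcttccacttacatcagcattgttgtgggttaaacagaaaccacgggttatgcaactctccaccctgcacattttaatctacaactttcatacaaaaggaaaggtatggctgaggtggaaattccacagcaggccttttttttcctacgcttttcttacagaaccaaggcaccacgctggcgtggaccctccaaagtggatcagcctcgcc
In the Ctss window the interferon-stimulated response element, here a pair of GAAA runs with any 2 bases between them, matched as GAAACCGAAA from -21 to -12 relative to the start, and it is present in 3.44% of all 32851 windows of this length. A core site of PU.1, a transcription factor of myeloid cells, GAGGAAG on the minus strand of the window, matched from -1 to 5 (13.6% of windows), and the TATA box letters TATAAA matched from -233 to -228 on the minus strand (13.6% of windows). The E-box CACGTG, the core of the element bound by TFEB-type regulators of lysosomal genes, was absent from the Ctss window and matched at -245 and -98 in Ctsd and at -236 in Ctsl. For 7 of the 9 genes 8 windows were found, and the E-box was in 4 of the 8 (Ctsd, Ctsl, Ctsf and 1 of the 2 of Ctsa), against 7.15% of all windows. The Ctsa window with the E-box belongs to a start 900 bases from the GENCODE start, and the other Ctsa window, 1 base from the GENCODE start, held none. The RefSeq starts of Ctsl and Ctsd lie 370 and 211 bases inside the genes as GENCODE draws them. The whole Ctsl window thus falls within that gene, and whether either window is the promoter used in this tissue was not tested. The full CLEAR element, the E-box with GT before it and AC after it, was in 0 of the 8 and in 0.326% of all windows, and TTCNNNGAA (GAS) was in the Ctsc window alone of the 8, against 8.3% of all windows. The PU.1 core was not particular to Ctss, since the Ctsc window also held it, at -197 and at -150 on the minus strand of the window. Every motif was searched on both strands by its exact letters, so near matches of the CLEAR element were not counted. The CLEAR element contains the E-box, and a match is a description of letters only.

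All 9 genes passed the filter on low counts, and their order was the same in both groups when ranked by mean TPM, a level that accounts for the length of the transcript and the size of the library. Cathepsin D, an aspartic protease whose loss causes a neuronal lysosomal storage disease, had the highest level, 419 TPM ± 59.6 (SD, n = 5) in control libraries. Cathepsin B, a cysteine protease that cuts both within and at the end of proteins, followed with 229 TPM ± 4.17 (SD, n = 5). Ctsd was above Ctsb in 5 of 5 control libraries, and both lay above each of the other 7 genes on average.

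In the middle of the order stood Ctss with 122 TPM ± 12.9 (SD, n = 5) and Ctsl, a broad lysosomal endopeptidase, with 110 TPM ± 10.4 (SD, n = 5). Ctss exceeded Ctsl in 4 of 5 control libraries and in 5 of 5 circTau6 libraries, and the control ranges overlapped. Ctsa, a serine carboxypeptidase that shields lysosomal galactosidase and neuraminidase, had 90.6 TPM ± 7.42 (SD, n = 5). Ctsf, a cysteine protease linked to adult-onset lysosomal storage disease, and Ctsz, a carboxypeptidase, did not separate, at 46.3 TPM ± 2.62 (SD, n = 5) and 43.7 TPM ± 5.77 (SD, n = 5). The aminopeptidase gene Ctsh and the dipeptidyl peptidase gene Ctsc were lowest and also did not separate, at 16.7 TPM ± 2.74 (SD, n = 5) and 16.7 TPM ± 3.09 (SD, n = 5), with Ctsh higher in 3 of 5 control libraries. The place of Ctsl depends on the transcript length used. With the longest annotated transcript of each gene, 6168 bases for Ctsl, its control level in the same unit was 34.5, below Ctsa, Ctsf and Ctsz.

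**Figure D1:**
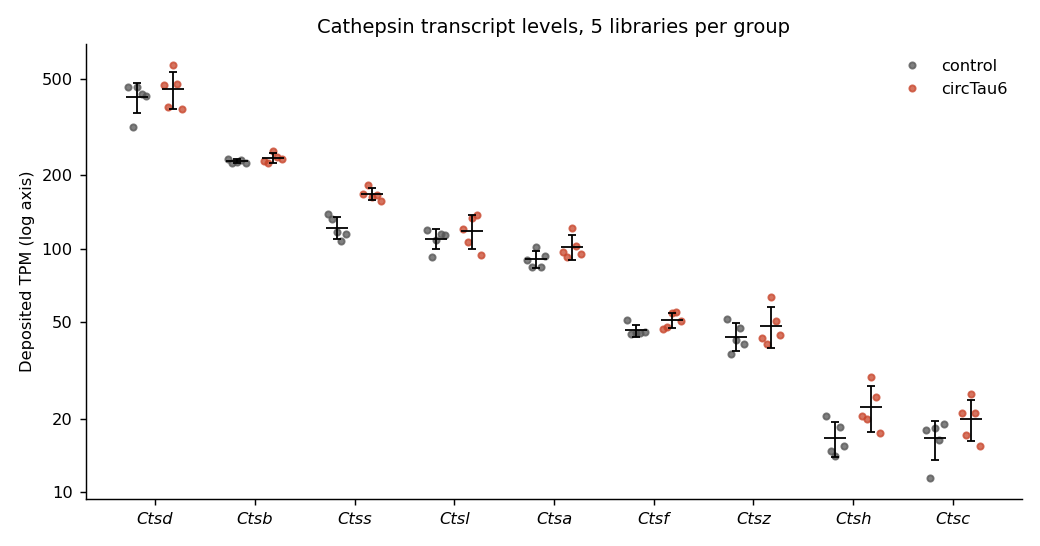
Deposited TPM on a log axis for the 9 cathepsin genes in 5 control (grey) and 5 circTau6 (red) libraries, with a bar for the mean and its SD. Ctss at 107 to 138 TPM in controls against 158 to 183 TPM in circTau6 libraries is the one gene of the 9 whose groups do not overlap.

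The spread between mice differed among the genes. Ctsb varied least, with a coefficient of variation of 2.25% in control and 4.35% in circTau6 libraries on the CPM scale (counts relative to the scaled library total). Ctsc varied most in control libraries, at 19.1%, and Ctsz in circTau6 libraries, at 18.8%. Counting error alone allows 1.24% for Ctsb and 6.95% for Ctsc in the library with the fewest counts of each. Ctsd, with 4578 to 8489 counts per library, varied by 14.7% in control and 17.6% in circTau6 libraries where counting error allows 1.48%.

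Ctss (ENSMUSG00000038642, chromosome 3 from 95526786 to 95556403 in GRCm38, plus strand) had 1170, 1219, 1134, 889 and 946 counts in control replicates 1 to 5. In circTau6 replicates 1 to 5 it had 1616, 1718, 1547, 1523 and 1251 counts. Scaled to library size, these were 75.7, 72.3, 65.1, 59.5 and 63.1 CPM in controls against 91.6, 100.6, 88.8, 89.7 and 85.1 CPM in circTau6 libraries. The lowest circTau6 library, replicate 5, lay above the highest control library, replicate 1, and the groups did not overlap in CPM or in TPM. The log2 fold change was 0.44 ± 0.07 (SE), or 1.36 times the control level. Because of its place in the choice of genes, this value is a description. The cathepsin gene next to it, Ctsk (chromosome 3 from 95499256 to 95509362, plus strand), an osteoclast protease, had 1.47 CPM in controls against 1.62 CPM in circTau6 libraries, with a log2 fold change of 0.14 ± 0.28 (SE).

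The rest of the family had smaller differences with overlapping groups. Groups without overlap in CPM, circTau6 above control, occurred in 1 of the 9 (Ctss, where the choice used this contrast), and 0.472% of the 14396 genes tested had this pattern. In edgeR's quasi-likelihood test with Benjamini-Hochberg adjustment over all genes, 0 of the 9 were called at 0.05, and 0% of all genes were called in either direction. At an unadjusted p under 0.05 stood 2 of the 9, Ctss and Ctsh, both higher, against 2.58% of all genes higher and 1.85% lower. DESeq2 called 1 of the 9, Ctss, against 0.097% of its 14428 genes called higher, and limma voom called 0. The edgeR call of Ctss turned on single libraries. Its adjusted p in edgeR was 0.0713 with all of them, 0.0491 without control replicate 1 (0.00689% of genes called higher) and 0.0331 without circTau6 replicate 5 (0.0275%). Over all 19 alternatives its adjusted p ran from 1.82e-05, the DESeq2 value, to 0.300 in edgeR without control replicate 4, and the lowest edgeR value was 0.0229 with the replicate number as a block. Ctss was also called by edgeR with library totals only (0.0139% of genes called higher), with no count filter (0.0109%), with the replicate number as a block (0.0278%) and without both libraries poor in choroid plexus transcripts (0.0208%). Without control replicate 3, where 0.0069% of genes were called higher, 0 of the 9 were. Since Ctss was picked for this comparison, these calls do not add support to its difference. The authors' deposited table gives Ctss an FDR of 0.00404 and each of the other 8 genes an FDR of 0.987. Among all 21956 genes of that table, 8 were higher and 0 lower at an FDR under 0.05.

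All 9 log2 fold changes had a positive sign, with a median of 0.12 beside −0.00 over all tested genes, of which 49.9% were positive. The value of Ctsb turned to −0.00197 without circTau6 replicate 3, and the other 8 stayed positive in each alternative analysis. Ctsh, which trims peptides from the amino end, had 8.84 to 12.3 CPM in controls against 10.3 to 14.1 CPM in circTau6 libraries, which gave a fitted log2 change of 0.31 ± 0.12 (SE). Ctsc, which activates granule proteases of immune cells, had 0.19 ± 0.15 (SE), and Ctsz had 0.13 ± 0.12 (SE). Each of these 3 had circTau6 libraries inside the control range.

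Ctsa and Ctsf had log2 fold changes of 0.12 ± 0.06 (SE) and 0.11 ± 0.06 (SE), and Ctsl and Ctsd 0.10 ± 0.10 (SE) and 0.10 ± 0.14 (SE). Ctsb, the least variable of the 9, had 0.03 ± 0.04 (SE), with 428 to 450.0 CPM in controls against 432 to 481 CPM in circTau6 libraries. The 95% interval (normal approximation) of the Ctsb change ran from −0.05 to 0.10, while that of Ctsd ran from −0.18 to 0.38. So the measurements bound a change in Ctsb more tightly than one in Ctsd, although their counts are alike. As a share of the summed TPM of the 9 genes, Ctss held 11.2% ± 1.61 (SD, n = 5) in controls against 13.9% ± 1.82 (SD, n = 5) in circTau6 libraries, and these ranges overlapped, from 9.8% to 13.8% and from 11.5% to 16.5%.

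In GENCODE release M21 (GRCm38), Ctsb lies on chromosome 14 from 63122462 to 63145923, Ctsl on chromosome 13 from 64359337 to 64370890, Ctsh on chromosome 9 from 90054152 to 90076089 and Ctsf on chromosome 19 from 4855130 to 4860918. Ctsc lies on chromosome 7 from 88278085 to 88310888, and chromosome 2 holds Ctsa from 164832873 to 164841032 and Ctsz from 174427493 to 174439039. Several members overlap other genes there. Ctsb shares its locus with Fdft1, Ctsz with Nelfcd, and Ctsa with Pltp and Neurl2, all on the opposite strand, and Ctsd overlaps the gene Gm49369 on its own strand. The libraries were strand-specific per the labels' protocols, but whether the counting used strand is not given, so reads of the opposite-strand pairs may not be told apart. Strand cannot separate Ctsd from Gm49369, and how the counting shared reads of their overlap is not given. No gene overlapping Ctss has a row in the table.

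Microglia markers were read beside Ctss, a gene that microglia express. Of 12 homeostatic markers 11 are in the table and all 11 were tested. 10 had positive log2 fold changes, the median was 0.11, and 0 were called. Csf1r, the receptor microglia need to survive, had a log2 fold change of 0.17 ± 0.06 (SE), and the surface marker Tmem119 had 0.25 ± 0.08 (SE). The groups did not overlap for 2 of the 11 markers, Csf1r and Tmem119, against 0.472% of all tested genes with circTau6 above control. Both gaps were narrow, from 85.2 to 85.3 CPM for Csf1r and from 18.1 to 18.3 CPM for Tmem119. The summed level of the list was 397 to 427 CPM in controls against 430 to 456 CPM in circTau6 libraries, so these groups did not overlap either. The mean of this sum was 408 CPM ± 12.2 (SD, n = 5) in controls against 443 CPM ± 10.8 (SD, n = 5) in circTau6 libraries.

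Divided by that sum, Ctss gave ratios of 0.187, 0.169, 0.158, 0.149 and 0.159 in control replicates 1 to 5, and of 0.209, 0.221, 0.202, 0.209 and 0.188 in circTau6 replicates 1 to 5. The groups did not overlap, though circTau6 replicate 5 and control replicate 1 nearly touched. This ratio carries the Ctss difference by which the gene was chosen, so it is a description and adds no support. The mean ratio was 0.164 ± 0.0144 (SD, n = 5) in controls against 0.206 ± 0.012 (SD, n = 5) in circTau6 libraries. For the other 8 genes the mean of this ratio in circTau6 libraries, divided by its mean in controls, lay between 0.938 for Ctsb and 1.14 for Ctsh, and each had overlapping groups. The part of microglial number or state in the Ctss difference was not tested.

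Cells that can also carry cathepsin S were represented weakly. The 9 markers of border macrophages and monocytes, such as Mrc1 and F13a1, summed to 10.1 to 19.6 CPM in controls against 12.2 to 31.3 CPM in circTau6 libraries. Of these, 5 passed the filter, 4 of the 5 with positive and 1 with negative log2 fold changes, and 0 were called. Ccr2, a monocyte receptor, had 0.393 CPM in controls against 1.10 CPM in circTau6 libraries, with a log2 fold change of 1.52 ± 0.60 (SE). Its groups overlapped, from 0.0593 to 1.34 CPM in controls and from 0.476 to 1.46 CPM in circTau6 libraries, and its highest count in a library was 25. The 7 neutrophil markers summed to 0.23 to 3.28 CPM in controls against 1.19 to 3.94 CPM in circTau6 libraries, and none passed the filter. No marker of either list was at 0 in all 10 libraries, and the part of these cells in the Ctss difference was not tested.

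**Figure D2:**
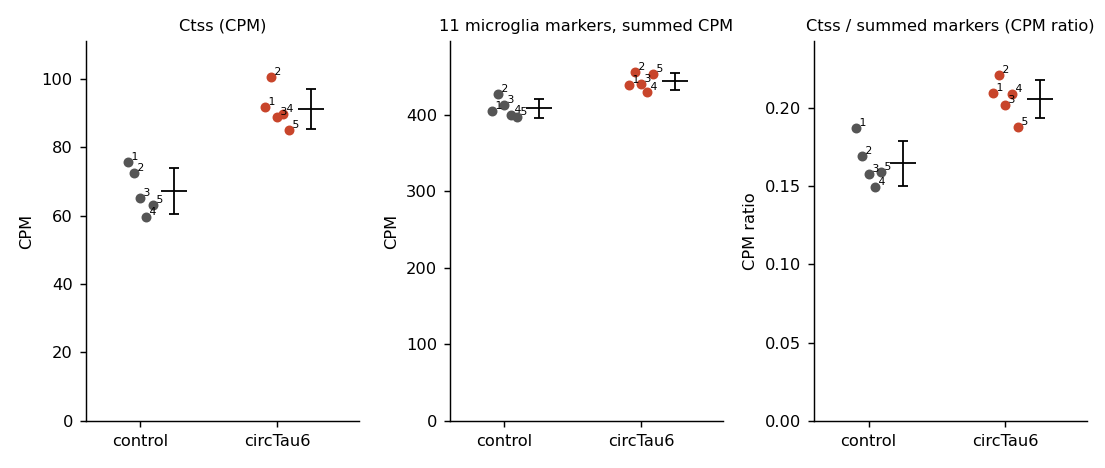
Ctss in CPM, the summed CPM of 11 homeostatic microglia markers, and the ratio of the first to the second, by library, with the replicate number beside each point and a bar for the mean and SD. The groups do not overlap in any panel, and in the ratio the lowest circTau6 value is 0.188 and the highest control value 0.187.

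Both libraries poor in the choroid plexus transcript Ttr were low for several members. The choroid plexus, which makes cerebrospinal fluid and expresses the transthyretin gene Ttr at very high levels, lies beside the hippocampus. The count of Ttr was 650 for control replicate 2 and 411 for circTau6 replicate 5, while the other 8 libraries held 28538 to 86422. Control replicate 2 was the lowest control library for 8 of the 9 genes, all but Ctss. CircTau6 replicate 5 was the lowest circTau6 library for 6 of the 9, namely Ctss, Ctsd, Ctsl, Ctsh, Ctsc and Ctsa. Meningeal fibroblast markers were low and high in the same libraries: their sum was lowest in control replicate 2, at 133 CPM, and in circTau6 replicate 5, at 106 CPM, and highest in circTau6 replicate 3, at 433 CPM. The part of choroid plexus, meninges or dissection in the cathepsin values was not tested.

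Ctsd (ENSMUSG00000007891, chromosome 7 from 142375911 to 142388038) had 397, 272, 404, 374 and 362 CPM in control replicates 1 to 5. In circTau6 replicates 1 to 5 it had 402, 328, 487, 401 and 319 CPM. Control replicate 2 was thus at 0.707 times the mean of the other controls, and circTau6 replicate 5 at 0.788 times the mean of the other circTau6 libraries. Ctsc was at 0.624 and 0.757 times, Ctsl at 0.790 and 0.790 times, and Ctsh at 0.838 and 0.779 times. Ctsb, at 0.966 and 0.980 times, hardly moved, and Ctss, at 1.10 and 0.918 times, moved in opposite directions in the 2 libraries.

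Co-variation with Ttr was then computed among the 8 libraries with ample Ttr, a comparison chosen after the values were seen. There Ctsd deviated from its group mean together with Ttr, with Pearson's r of 0.94 and Spearman's rho of 0.90 (n = 8, two-sided permutation p = 0.000918 and 0.00456). The permutations ran over all orders of the 8 libraries and crossed the groups after group means were removed. The p-values given here are therefore approximate and may be too small. Benjamini-Hochberg adjustment over the 9 genes gave 0.00826 and 0.0411, and r was 0.79 after leaving out the 2 libraries farthest from the median of Ttr, circTau6 replicates 2 and 3. Without circTau6 replicate 3 alone, r of Ctsd was 0.97. Ctsl had an r of 0.89 and a rho of 0.79 (n = 8, permutation p = 0.00779 and 0.0279, adjusted 0.035 and 0.126), and r fell to 0.57 without those libraries. Ctsc had an r of 0.83 and a rho of 0.55 (n = 8, permutation p = 0.0162 and 0.171, adjusted 0.0485 and 0.257), and with r at 0.04 without those libraries its relation rests on them. Ctss had an r of −0.39 and a rho of −0.17 (n = 8, permutation p = 0.341 and 0.703, adjusted 0.383 and 0.791), and its r was 0.10 without those libraries. For the remaining 5 genes r lay between 0.36 for Ctsh and 0.76 for Ctsb, with adjusted p from 0.0703 to 0.412 in the permutation test (n = 8).

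**Figure D3:**
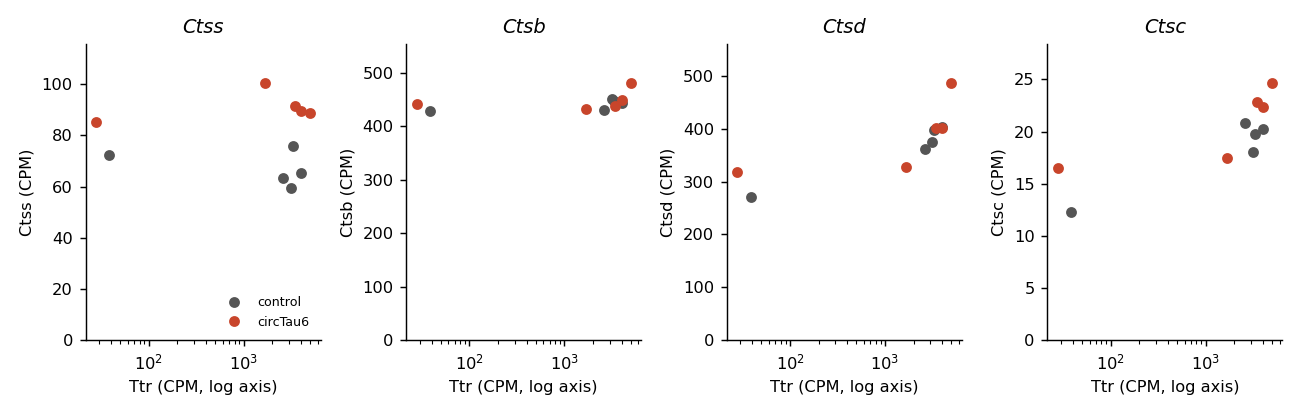
Ctss, Ctsb, Ctsd and Ctsc in CPM (linear axes from 0) against Ttr in CPM on a log axis, 1 point per library, grey for control and red for circTau6. The libraries at 38.6 and 28.0 CPM of Ttr are the lowest of their groups for Ctsd and Ctsc. For Ctss every circTau6 library lies above every control, which is the difference by which the gene was chosen and says nothing about Ttr.

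CircTau6 replicate 3 was the highest circTau6 library for 5 of the 9 genes, Ctsb, Ctsd, Ctsz, Ctsc and Ctsa. It had 1.34 times the mean of the other circTau6 libraries for Ctsd and 1.43 times for Ctsz, but 0.968 times for Ctss. This library had the highest Ttr level, and over 12439 genes the correlation of its deviations with the GC content of the transcript was 0.37, where the other 9 libraries gave −0.09 to 0.00. In GC content of the longest transcript, Ctsz has 57.3%, Ctsd 56.0% and Ctss 46.0%, beside a median of 49.6% over those genes. In that library Ctsc, with the lowest GC content of the 9 at 41.1%, was at 1.248 times the mean of the other circTau6 libraries. Ctsl (44.3% GC) was at 1.14 times, Ctsb (49.2%) at 1.09, Ctsh (50.05%) at 1.14, Ctsa (54.5%) at 1.19 and Ctsf (56.6%) at 1.07. Without circTau6 replicate 3 the log2 fold changes of Ctsd and Ctsz were 0.00 and 0.01, and that of Ctss was 0.45. The part of GC content in these values was not tested.

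**Figure D4:**
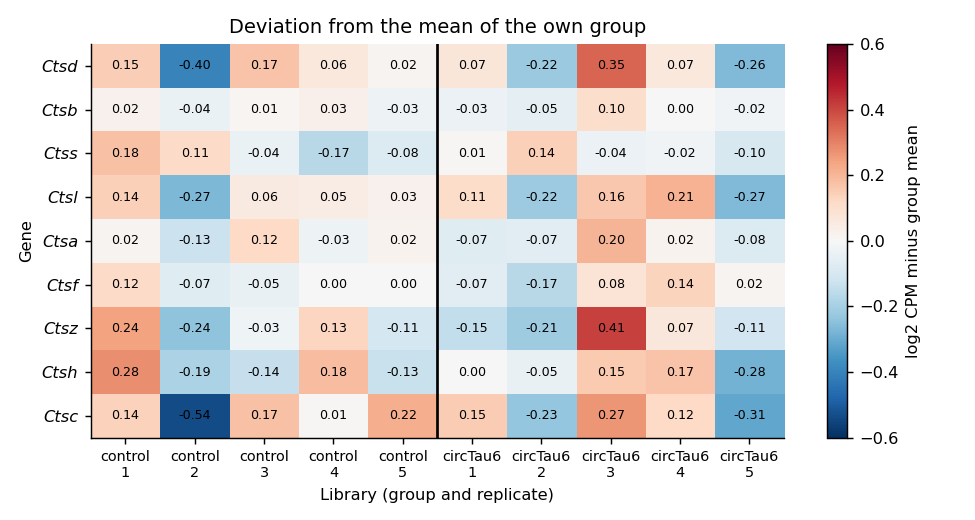
Deviation of log2 CPM from the mean of the own group for the 9 genes (rows, ordered by control TPM) in the 10 libraries (columns), with the value printed in each cell. Control replicate 2 is low for 8 of the 9 genes, circTau6 replicate 3 is high for most, and Ctss follows a different order.

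No co-variation within groups between Ctss and the rest of the family was detected. Over the 10 libraries, the deviations of Ctss from its group mean had Pearson's r of −0.28 to 0.13 with the other 8 genes, and Spearman's rho of −0.38 to 0.22. In the permutation test 0 of 8 pairs passed, with adjusted p of 0.718 for r in each pair (n = 10) and 0.809 or above for rho. Without the 2 libraries farthest from the median of Ctss, r lay between −0.40 and −0.22. At this number of libraries a weak relation would not be detectable, and a moderate one could be missed.

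The genes whose deviations were most like those of Ctss, among 13082 whose average log2 CPM was 1 or more, were Gbp7 with r of 0.98, Ccna2 with 0.98, Rbfa with 0.94, Mlst8 with 0.93 and Aif1 with 0.92, each over 10 libraries. Spearman's rho was 0.99, 0.96, 0.95, 0.87 and 0.87, and r stayed at 0.84 or above without the 2 libraries farthest from the median. These 5 were picked as the highest of 13082 values over these same libraries. No test applies, and their rho and their r without 2 libraries are no independent check. Gbp7 is an interferon-inducible GTPase gene, Ccna2 encodes cyclin A2, and Aif1 encodes IBA1 of microglia. Levels were low for Ccna2 (2.80 CPM in controls, 2.35 CPM in circTau6 libraries) and Aif1 (1.965 and 2.80 CPM), so counting error weighs more in their deviations. Of the 13082 genes, 81 had an r of at least 0.8. Of the 11 listed microglia markers, Selplg was closest at 0.56 and Tmem119 farthest at −0.48, while the closest cathepsin gene was Ctsh at 0.13.

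Genes that make, sort or restrain cathepsins had overlapping groups in each tested case, and edgeR called 0 of them in the lists below. Of 13 other cathepsin genes 9 had 0 counts in all libraries, among them the placental family (Ctsj, Ctsm, Ctsq, Ctsr, Cts3, Cts6, Cts7 and Cts8) and the neutrophil gene Ctsg. Only Ctso and Ctsk of this list passed the filter. Ctso, a broadly expressed cysteine protease, had 32.5 to 37.5 CPM in controls against 36.7 to 44.6 CPM in circTau6 libraries and a fitted log2 change of 0.20 ± 0.06 (SE), with a median of 0.17 over both genes.

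Of 11 inhibitor genes 7 were tested, 3 with positive and 4 with negative log2 fold changes and a median of −0.00. Cystatin C (Cst3), the main secreted inhibitor of cysteine cathepsins in brain, had 1472 TPM in control, above each cathepsin gene, and a log2 fold change of 0.06 ± 0.05 (SE). Ctla2b, a mouse gene related to the cathepsin propeptide, had 0.74 ± 0.51 (SE) at 0.634 CPM in control, and Serpina3g, a serpin that inhibits cathepsins, had −0.28 ± 0.47 (SE). Both belong to families of closely related copies whose reads the counting may split, so their values are uncertain. Cystatin F (Cst7), an inhibitor made by activated microglia and other immune cells, was below the filter at 0.0668 to 0.534 CPM in controls against 0.517 to 0.937 CPM in circTau6 libraries. These groups of Cst7 overlapped slightly, and the 10 libraries held 78 counts in all.

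In the list of processing, sorting and partner proteins, 13 of 13 genes were tested, 9 with positive and 4 with negative values and a median of 0.06. Legumain (Lgmn), the protease that processes several procathepsins, had 82.9 to 91.3 CPM in controls against 89.4 to 112.8 CPM in circTau6 libraries, which gave a fitted log2 change of 0.19 ± 0.06 (SE). Progranulin (Grn), a lysosomal cofactor precursor, had 0.21 ± 0.08 (SE), and Gnptab, which builds the mannose 6-phosphate tag, had −0.09 ± 0.04 (SE). The groups overlapped for each of the 13 genes.

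Of the MiT transcription factors, which switch on lysosomal genes through the E-box of the CLEAR element, 3 of 4 were tested. Tfeb had a log2 fold change of 0.28 ± 0.17 (SE), Mitf −0.13 ± 0.19 (SE) and Tfe3 −0.06 ± 0.06 (SE), with a median of −0.06. The 5 granule proteases that cathepsin C activates (Gzma, Gzmb, Elane, Prtn3 and Cma1) summed to 0.172 to 0.653 CPM in controls against 0.17 to 0.816 CPM in circTau6 libraries, and none passed the filter. The highest count of any of them in a library was 10, for Gzmb.

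**Figure D5:**
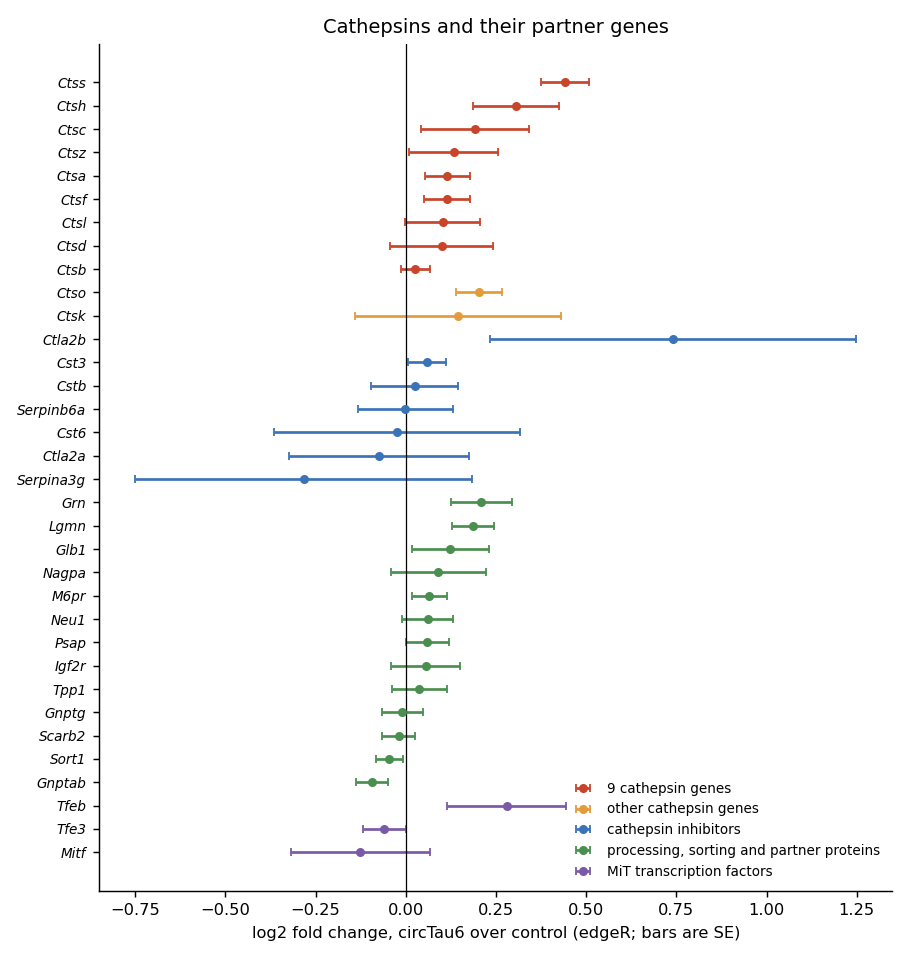
Log2 fold changes of circTau6 over control from edgeR with their SE, for the 9 cathepsin genes and the tested genes of 4 related lists. Ctss at 0.44 has the largest value of the 9, Ctla2b at 0.74 has a wide error, and none of the genes was called after adjustment over all tested genes.

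For the series as a whole, total counts per library were 14762952 to 17647138. Markers of hippocampal neurons such as Neurod6 and Wfs1 were present in every library, and their list summed to 1124 to 1348 CPM in controls against 1051 to 1312 CPM in circTau6 libraries. Summed meningeal fibroblast markers were 133 to 326 CPM in controls against 106 to 433 CPM in circTau6 libraries. Endothelial markers were at 176 to 208 CPM in controls against 180 to 224 CPM in circTau6 libraries, and astrocyte markers at 1244 to 1506 and 1367 to 1475 CPM. No call was made in these lists or in those of neurons, choroid plexus and oligodendrocytes. Of the oligodendrocyte markers, 1 of 5 had every circTau6 library below every control, against 0.368% of all tested genes. It was Ugt8a, a myelin lipid enzyme gene, with 57.4 to 61.3 CPM in controls against 43.1 to 55.8 CPM in circTau6 libraries and a log2 fold change of −0.27 ± 0.07 (SE).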

How the data were processed

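RNA from the hippocampus was ribosome-depleted and sequenced as strand-specific 150 bp pairs, per the labels' protocols, with RNA integrity numbers above 8.0. RSEM and StringTie 1.3.1 are listed in the submitters' processing notes without a stated step. Aligner, genome build and annotation: not given in the sources used here. For each gene the deposited table holds, per the file headers, the authors' counts and TPM of each library, their group means of TPM, a log2 fold change, a p-value and an FDR. A count of 0 beside a positive TPM occurred in 108 entries, and whether the counts are rounded estimates is not stated.

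Members and lists were chosen with earlier results of these data known. Counts were tested with edgeR 4.0.16 (filterByExpr, TMM, robust quasi-likelihood, Benjamini-Hochberg, threshold 0.05) in R 4.3.3, tested on simulated data first. Alternatives used DESeq2 1.42.0 and limma 3.58.1. SE is the log2 fold change over the root of F. CPM uses TMM-scaled totals, and log2 CPM a prior count of 2. Co-variation used deviations from group means and 100000 permutations, or all orders of 8 libraries for Ttr. These permutations crossed the groups, so their p-values are approximate. With 5 mice in each group, a p-value here measures only the spread between those samples. Beyond the 9 genes, the genes named are those of lowest p in each list (up to 3), the 5 most like Ctss, and others picked after their values were seen: Ttr, Cst7, Gzmb, Selplg and the unexpressed cathepsin genes. A marker gene that this rule names is not reported here. Of the table's IDs 21804 matched GENCODE M21 (GRCm38), from which coordinates come. Promoter sequences are from RefSeq, GRCm38.p6.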

Additional observations from a re-analysis of the deposited data

Results flagged for a closer look

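In 36 groups of 5 values (9 genes, 2 groups, CPM and TPM), 2 held a library far from the other 4, and chance picks out about 5% of groups. Ctsd had 317.5 TPM in control replicate 2, below the 422 to 463 TPM of the remaining controls, and this library was also nearly without Ttr. Ctsf had 50.9 TPM in control replicate 1, above the 44.6 to 45.5 TPM of the remaining controls. Neither value was picked out on the CPM scale.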

How the results depend on the processing

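The count of 0 genes higher became 14 with DESeq2, 2 with library totals only, 2 with no count filter, 4 with the replicate block and 3 without both choroid-poor libraries, and 0 to 4 when 1 library was left out. The count of 0 cathepsin genes called became 1, always Ctss, under each of those 5 settings, and was 0 to 1 leaving out 1 library. Ctss was called in 7 of 19 alternatives, with adjusted p from 1.82e-05 to 0.300 and log2 fold changes of 0.40 to 0.49. The cause of these shifts was not tested. The labels give no pairing of libraries by replicate number. Over all tested genes, deviations of same-numbered libraries correlated at −0.08 to 0.14, and no control library matched best its own number. Whether same-numbered libraries share a batch was not tested. No gene was called lower, and no gene of the other 5 lists was called, in any alternative.

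Control levels from counts over the longest annotated transcript were, in TPM, 141 for Ctss, 263 for Ctsb, 482.5 for Ctsd, 34.5 for Ctsl, 50.3 for Ctsz, 10.6 for Ctsh, 63.4 for Ctsa and 49.4 for Ctsf, a shift built into the length used. Without circTau6 replicate 3 the log2 fold change of Ctsb was −0.00197, the lowest of a range up to 0.039 when 1 library was left out. On log2(TPM + 1) the r of Ctsf with Ctss turned to 0.15. At 14762952 counts, a floor of 3 counts is 0.203 CPM, for counting error alone.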

Other observations

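The deposited counts and TPM gave different pictures of Ctsh. In circTau6 replicate 3 Ctsh had 29.9 TPM, the highest of the 10 libraries, but 13.95 CPM, below the 14.13 CPM of circTau6 replicate 4. The quotient of group means was 1.35 in TPM and 1.23 in CPM. For Ctss the quotient was 1.37 in TPM and 1.36 in CPM. The summed TPM of the 9 cathepsin genes was 1094 ± 84.6 (SD, n = 5) in controls against 1220.0 ± 132 (SD, n = 5) in circTau6 libraries, with ranges of 958 to 1185 and 1085 to 1415 that overlapped.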
